A study of Homo sapiens with 15 samples.

Results

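PMEPA1 (prostate transmembrane protein, androgen induced 1) lies on the minus strand of chromosome 20, and this report gives the contacts of its promoter in a chromatin loop series. Its loops were taken by position alone: a loop belonged to PMEPA1 where at least 1 bp of a 1 kb anchor overlapped the 2.5 kb on either side of a start site. Of the 505995 different loops of the series, 60 met this at the canonical start and 12 at the other start. As 1 loop joined both, 71 different loops were PMEPA1 loops. Further starts near the canonical start were counted with it and are named below.

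The data were HiChIP, in which chromatin contacts are captured together with a histone mark, of H3K27ac and H3K4me3 in LNCaP cells, an androgen-sensitive human prostate cancer line. Cells were held for 3 days in phenol red-free RPMI with charcoal-stripped serum, which removes steroids, and then given 10 nM DHT (dihydrotestosterone). Contact was read at 5 times, which all lists below follow in order: vehicle (ethanol, called 0 m), 30 m of DHT, then 4 h, 16 h and 72 h. The labels name 15 samples, with 2 replicates at each time for H3K27ac and 1 for H3K4me3. Each table gives a loop a single value, and replicate error cannot be estimated. The labels do not say whether the 2 H3K27ac replicates were merged, and the marks were scaled separately, so no ratio between them is given. All samples are of this 1 line.

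PMEPA1 encodes a membrane protein that androgen induces in prostate cells and that TGF-beta also induces. It binds receptor-activated SMAD proteins and keeps them from the TGF-beta receptor, and its cytoplasmic PY motifs bind ubiquitin ligases of the NEDD4 family. Being induced by androgen while acting on TGF-beta signalling, it stands between both pathways. H3K27ac marks active enhancers and promoters, and H3K4me3 marks active promoters, so HiChIP of the former takes in more enhancer contacts and that of the latter more contacts of promoters.

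The line was first set against its markers by promoter contact, since no RNA is in these tables. Loop numbers do not depend on time, since all tables hold the same loops. The luminal prostate genes KLK3, KLK2, HOXB13 and TMPRSS2 had 13, 7, 9 and 56 loops. Their summed H3K27ac contact at 0 m was 142.8, 65.5, 241.2 and 106.1. The basal markers TP63 and KRT5 and the leukocyte marker PTPRC had 0 loops. The stromal markers VIM and COL1A1 had 16 and 17 loops, with a summed H3K27ac contact at 0 m of 13.5 and 24.4.

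The canonical start was at position 56285071 of chromosome 20 (hg19, the build of the loops), and the gene ran from 56223448 to 56286592. The 2.5 kb window touched the middle of 2 neighbouring 5 kb bins, chr20:56280001-56285000 on the gene side and chr20:56285001-56290000 on the upstream side, and the start lay 71 bp from their shared border. The start of NKILA, a long non-coding RNA gene on the opposite strand (chr20:56285212-56287836), was in the same window, so contact of PMEPA1 and of NKILA cannot be told apart here. Further PMEPA1 transcripts start at 56286592, 56285645, 56285625 and 56284816, and these starts were counted with the canonical start. The window of the start at 56284816 held the same 60 loops. Those of the starts at 56286592, 56285645 and 56285625 held only the 13 loops of the upstream-side bin. Values of the 60 loops are therefore not values of those starts alone. The other start, 18185 bp downstream of the canonical start, joins the starts of 2 shorter transcripts and fell in the bin chr20:56265001-56270000.

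The 250 bases before each start are shown because all PMEPA1 loops were chosen through these windows. They are from GRCh37, minus strand, 5′ to 3′, at chr20:56285072-56285321 for the canonical start and chr20:56266887-56267136 for the other. Capitals mark GGGCGG on either strand (the GC box).

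PMEPA1 canonical promoter: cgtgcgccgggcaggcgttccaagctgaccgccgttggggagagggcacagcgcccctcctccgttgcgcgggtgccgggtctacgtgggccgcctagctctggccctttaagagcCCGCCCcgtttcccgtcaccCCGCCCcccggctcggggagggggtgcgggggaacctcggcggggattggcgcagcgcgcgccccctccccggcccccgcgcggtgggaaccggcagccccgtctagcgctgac
PMEPA1 other start promoter: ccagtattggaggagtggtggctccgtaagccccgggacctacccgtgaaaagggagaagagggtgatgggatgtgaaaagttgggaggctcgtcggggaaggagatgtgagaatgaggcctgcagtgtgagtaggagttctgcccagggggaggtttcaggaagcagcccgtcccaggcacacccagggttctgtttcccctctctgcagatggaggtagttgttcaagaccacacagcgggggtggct

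The canonical window held 2 GC boxes and the other window 0, against at least 1 in 58.6% of 20144 protein-coding promoters of the same length. Neither held TATAAA (in 9.40% of promoters), the hexamer AGAACA (in 9.01%) or the forkhead letters TGTTTAC (in 2.11%), each searched on both strands. The canonical window was 76.8% G or C, above 88.8% of promoters, and had 33 CG pairs, while the other window was 58.8% G or C with 7 CG pairs. The median promoter was 63.2% G or C with 18 CG pairs.

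Loops of PMEPA1 pointed mostly to the upstream side. Of the 60 canonical loops, 2 ended upstream within 20 kb of the gene-side anchor, 7 upstream at 20 to 150 kb and 40 upstream beyond 150 kb. Inside the gene lay 6 far anchors, and 5 lay beyond its 3′ end. Thus 81.7% of the loops pointed upstream, against a median of 49.1% over the 8306 promoters with at least 20 loops, and PMEPA1 stood above 94.7% of them. The median length was 287500 bp and the longest loop spanned 1335000 bp, while the median over all loops was 175000 bp. Loops over 150 kb made up 70% of the canonical loops, inside the quartiles of the same promoters (median 64.3%, 52.2% to 74.1%), so the reach was ordinary for a promoter. With 60 loops the promoter had more than 90.7% of the 16340 protein-coding promoters with a loop, whose median was 20.

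The 2 bins of the promoter differed in the loop sets they came from. Of all 505995 loops, 227504 were in the H3K27ac set only, 209669 in the H3K4me3 set only and 68822 in both. The gene-side bin had 47 loops, of which 41 were in the H3K4me3 set only, 3 in the H3K27ac set only and 3 in both. The upstream-side bin had 13 loops, 12 of them in the H3K27ac set only and 1 in the H3K4me3 set only. The bins shared 4 far anchors. The other start had 12 loops, 10 of them in the H3K27ac set only, and 7 of its 11 far anchors outside the canonical window were far anchors of canonical loops too.

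**Figure D1:**
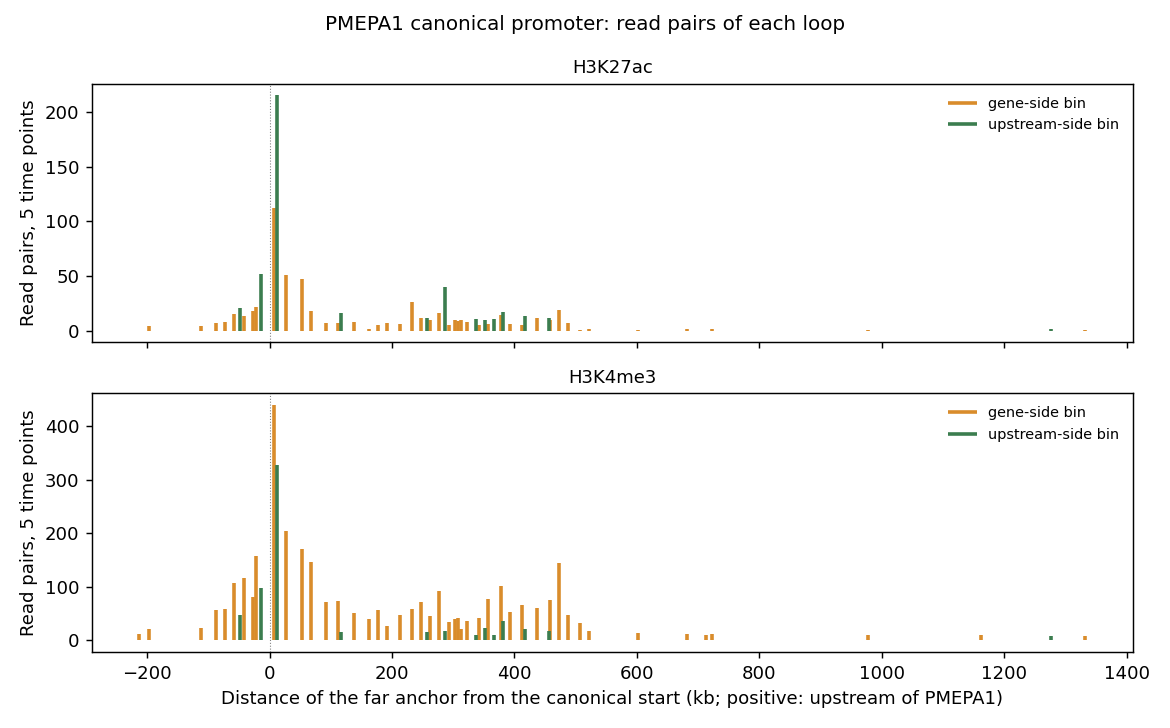
Read pairs of each of the 60 canonical loops, summed over the 5 time points of a mark, by distance of the far anchor from the canonical start (kb, positive upstream of PMEPA1); lines of the upstream-side bin are moved by 4 kb so that they can be seen. Both marks peak at the far anchor 7.4 kb upstream, and H3K4me3 read pairs of the gene-side bin reach past the loop at 472.4 kb.

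In both marks the strongest contact was with the bin centred 7.4 kb upstream (intergenic). Its loop from the gene-side bin had 551 read pairs over all 10 tables and its loop from the upstream-side bin had 542. These loops spanned only 10000 and 5000 bp, and read pairs were not corrected for distance. Next came the intergenic anchors 27.4 kb upstream (chr20:56312001-56313000, 256 read pairs) and 52.4 kb upstream (chr20:56337001-56338000, 218). Within PMEPA1 introns lay the anchors at -22.6, -17.6 and -42.6 kb (minus for the gene's side of the start), with 179, 150 and 129 read pairs. The anchor at chr20:56227001-56228000, with 122, overlapped an exon near the 3′ end. The intergenic anchors 67.4 kb and 472.4 kb upstream had 164 read pairs each.

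A window of the bins 27.4 and 52.4 kb upstream, both among the most contacted, is printed around the hexamer (capitals, AGAACA or its reverse complement TGTTCT) nearest to the middle of the anchor. They are plus-strand GRCh37 sequence at chr20:56312805-56312870 and chr20:56337730-56337795.

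27.4 kb upstream: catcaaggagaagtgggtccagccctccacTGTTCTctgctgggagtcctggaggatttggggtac
52.4 kb upstream: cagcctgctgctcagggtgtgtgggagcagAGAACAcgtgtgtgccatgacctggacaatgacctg

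These bins held 8 and 4 hexamers and 2 and 0 copies of TGTTTAC. Over all 62 bins of 5 kb that PMEPA1 loops join, the hexamer was in 100% (median 4 copies), as in 97.6% of the 210061 loop anchor bins of the series (median 4). The full palindrome, AGAACA and TGTTCT with any 3 letters between them, was in 0 of the 62 and in 0.104% of all anchor bins, too small a share for 62 bins to tell apart. TGTTTAC was in 19 of the 56 far bins of the canonical start (33.9%), against 53.2% of all anchor bins. The hexamer is part of every full match, and a match is a run of letters and not a measured binding site.

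The first comparison asks how contact of the canonical promoter stood at each time of DHT beside vehicle. H3K27ac contact, summed over the 60 loops in TMM-scaled signal, was 36.7, 50.9, 43.8, 49.7 and 38.4 over the 5 times, from 125, 283, 205, 234 and 146 read pairs. H3K4me3 contact was 108.0, 123.7, 154.7, 156.8 and 93.7, from 383, 362, 1952, 811 and 341 read pairs. H3K27ac contact was above vehicle at 30 m and 16 h, and H3K4me3 contact at 4 h and 16 h, while at 72 h the intervals of the change included 0 in both marks.

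**Figure D2:**
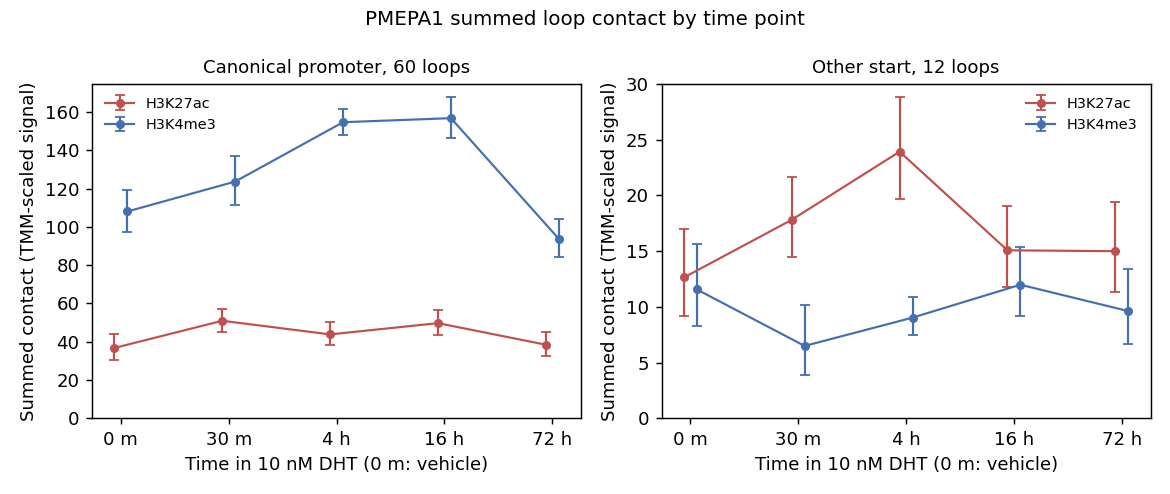
Summed contact (TMM-scaled signal) of the canonical promoter (left, 60 loops) and of the other start (right, 12 loops) by time point for each mark, with exact Poisson 95% intervals of the read pairs. H3K4me3 contact of the canonical promoter was 154.7 at 4 h and 156.8 at 16 h against 108.0 at 0 m, and H3K27ac contact of the other start was highest at 4 h; levels of the marks are not on 1 scale.

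Against 0 m, the log2 change of H3K27ac contact was 0.47 after 30 m (95% interval 0.16 to 0.79), 0.25 after 4 h (-0.07 to 0.59), 0.44 after 16 h (0.12 to 0.76) and 0.06 after 72 h (-0.29 to 0.42). For H3K4me3 it was 0.20 after 30 m (-0.02 to 0.41), 0.52 after 4 h (0.36 to 0.68), 0.54 after 16 h (0.36 to 0.72) and -0.20 after 72 h (-0.42 to 0.01). Intervals here and below are exact for the ratio of 2 read-pair sums and cover counting error only. With 1 value per time point, no difference has a replicate check, and differences between cultures cannot be told apart from those between times.

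Contact over all loops was not level either. Summed over the 505995 loops, H3K27ac signal was shifted against 0 m by a log2 of 0.09, 0.07, 0.25 and 0.17 at the 4 DHT times, and H3K4me3 signal by 0.02, 0.22, 0.14 and -0.13. Relative to that shift, the canonical H3K27ac change was 0.38 after 30 m (0.07 to 0.69), 0.19 after 4 h, 0.19 after 16 h (-0.13 to 0.51) and -0.11 after 72 h. The H3K4me3 change was 0.17 after 30 m, 0.29 after 4 h (0.14 to 0.46), 0.40 after 16 h (0.22 to 0.58) and -0.08 after 72 h. So the H3K27ac difference at 16 h was not detectable relative to all loops, and the direction at 72 h turned. The 30 m difference in H3K27ac and those at 4 h and 16 h in H3K4me3 were above the shift of all loops. Against promoters with at least 200 read pairs, the H3K27ac change of 0.47 at 30 m lay inside the quartiles (median 0.29, 0.02 to 0.52). The H3K4me3 changes at 4 h and 16 h lay above the upper quartiles (0.45 and 0.27).

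In order of level, H3K27ac contact of the canonical promoter was highest at 30 m, then at 16 h, 4 h, 72 h and 0 m, and no 2 neighbours in that order were apart beyond counting error. Its ends, 30 m and 0 m, were. H3K4me3 contact ran 16 h, 4 h, 30 m, 0 m and 72 h. There only 4 h and 30 m were neighbours whose ratio interval excluded equality (log2 difference 0.32, 0.16 to 0.49), and relative to all loops they were not apart (0.12, -0.04 to 0.29). The highest and lowest, 16 h and 72 h, differed by a log2 of 0.74 (0.56 to 0.93), and by 0.48 relative to all loops (0.30 to 0.67).

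By bin, the differences in H3K4me3 were clearest on the gene side. Its 47 loops had 86.0, 101.8, 130.4, 130.1 and 76.1 of H3K4me3 contact, and log2 changes of 0.60 at 4 h (0.42 to 0.78) and 0.60 at 16 h (0.40 to 0.80). The 13 loops of the upstream-side bin had 22.0, 21.9, 24.2, 26.7 and 17.6, and changes of 0.14 at 4 h (-0.22 to 0.52) and 0.28 at 16 h (-0.13 to 0.70). For the PMEPA1 starts at 56286592, 56285645 and 56285625, these 13 loops were all the loops of the window. Whether the bins differed in change was not tested. H3K27ac contact of the gene-side bin was 20.3, 30.2, 22.2, 29.5 and 21.3, and that of the upstream-side bin 16.5, 20.7, 21.6, 20.2 and 17.1.

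By position, the 40 loops that reached over 150 kb upstream had H3K4me3 contact of 41.5, 43.0, 65.6, 62.0 and 41.0 at the 5 times, with a log2 change of 0.66 at 4 h (0.41 to 0.93) and 0.58 at 16 h (0.30 to 0.87). The 7 loops at 20 to 150 kb upstream had 21.7, 30.4, 27.4, 32.3 and 15.1, with 0.49 already at 30 m (0.03 to 0.94), 0.57 at 16 h (0.17 to 0.98) and -0.52 at 72 h (-1.05 to -0.0047). Relative to all loops the 72 h change was -0.40 (-0.92 to 0.12) and its interval included 0. The 4 loops of up to 20 kb on either side had 30.5, 31.4, 43.2, 39.0 and 20.3, and were lower than vehicle at 72 h (-0.58, -1.03 to -0.14), also relative to all loops (-0.46, -0.90 to -0.02). Loops within the gene gave 20.9, 18.4, 21.7, 27.3 and 17.6, and all 4 intervals of their change included 0. In H3K27ac the 7 loops at 20 to 150 kb upstream went from 5.58 at 0 m to 10.4 at 30 m, a log2 change of 0.90 (0.13 to 1.73), and stood at 6.20, 6.37 and 4.74 later.

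**Figure D3:**
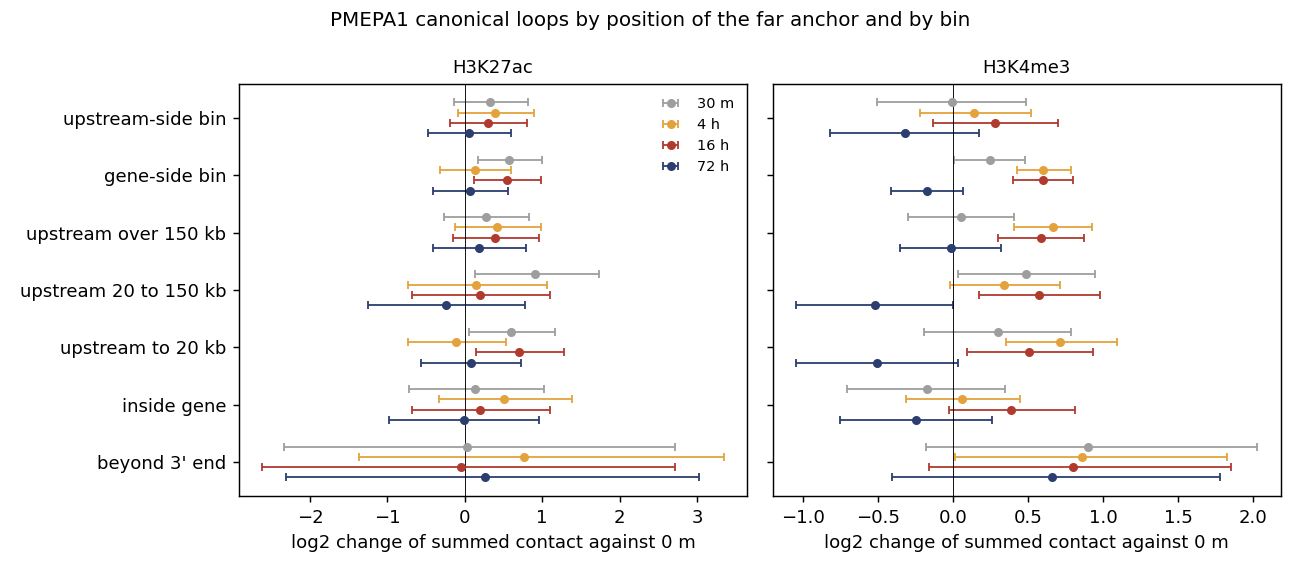
log2 change of summed contact against 0 m with exact 95% intervals, for canonical loops split by where the far anchor lies and by bin, 1 panel a mark and 1 colour a time point. H3K4me3 changes at 4 h and 16 h of the gene-side bin (0.60 and 0.60) and of loops over 150 kb upstream (0.66 and 0.58) lie right of 0; intervals of the 5 loops beyond the 3′ end are wide.

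Single loops carried few read pairs. Over the 5 time points, 9 of the 60 canonical loops had at least 20 read pairs in H3K27ac and 44 in H3K4me3; at least 50 were reached by 4 and 26. At 0 m, 25 of the 60 (41.7%) had no H3K27ac read pair, against 19.9% of all loops, and 6 (10.0%) had no H3K4me3 read pair, against 25.8%. These shares were not matched for loop set. Of the 60, 42 were in the H3K4me3 set only, against 209669 of all 505995 loops.

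The loop with most read pairs over both marks, gene-side bin to 7.4 kb upstream, had H3K4me3 contact of 11.8, 13.0, 20.5, 14.3 and 7.15 over the 5 times. Its 4 h value lay above vehicle (log2 change 0.79, 0.32 to 1.30). Its H3K27ac contact was 4.41, 7.02, 2.14, 8.28 and 2.37, highest at 16 h (0.91, 0.02 to 1.88), a difference not detectable relative to all loops (0.66, -0.23 to 1.63). The loop of the upstream-side bin to the same anchor had more H3K27ac read pairs than any other canonical loop at each time. Its H3K27ac contact was 7.35, 10.8, 8.76, 10.8 and 10.0, and no interval of its 4 changes excluded 0. Its H3K4me3 contact was 8.46, 11.96, 12.8, 14.5 and 7.15, above vehicle at 16 h (0.78, 0.15 to 1.44). At 4 h the change was 0.59 (0.02 to 1.21), and 0.37 relative to all loops (-0.20 to 0.98).

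The loop that reached 472.4 kb upstream (chr20:56757001-56758000) was in both sets. Its H3K4me3 contact was 2.26, 4.44, 6.73, 6.38 and 1.65, a log2 change of 1.58 at 4 h (0.53 to 2.84) and 1.499 at 16 h (0.36 to 2.82). In H3K27ac it had no read pair at 0 m and 9 at 30 m, so only a lower limit of the log2 change can be given (0.27, or 0.18 at equal totals). The loop to 67.4 kb upstream had H3K4me3 contact of 2.82, 4.44, 5.78, 6.96 and 3.85, with a log2 change of 1.30 at 16 h (0.26 to 2.48). The loops to 52.4 and 112.4 kb upstream were lower at 72 h. Their H3K4me3 contact was 5.92, 8.20, 6.10, 8.12 and 1.92, and 4.23, 2.39, 2.46, 3.09 and 1.10, with 72 h changes of -1.62 (-3.10 to -0.33) and -1.94 (-3.99 to -0.29) from 7 and 4 read pairs at 72 h.

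Among loops with at least 50 H3K4me3 read pairs, the highest 16 h changes were 2.26 (0.14 to 5.44) for the loop to -72.6 kb, 1.62 for the loop to 392.4 kb upstream and 1.499 for the loop to 472.4 kb. The first 2 of these rest on 2 read pairs at 0 m. The lowest were -0.62 (-1.64 to 0.39) for the loop between the 2 starts, -0.45 for the loop to 112.4 kb upstream and -0.32 for the loop to 232.4 kb upstream. In H3K27ac, 4 canonical loops had 50 read pairs, and their 16 h changes ran from 0.18 for the loop between the starts, over 0.23 at 27.4 kb and 0.56, to 0.91 for the 2 loops at 7.4 kb.

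Loops past a 1.5-fold difference were then counted among loops with at least 20 read pairs over the 5 times of the mark. In H3K4me3 at 4 h, 24 of 44 canonical loops were at least 1.5-fold higher than at 0 m and 5 lower, against 32.5% and 14.8% of all loops. At 16 h, 23 were higher and 4 lower, against 29.1% and 15.9%. At equal totals the 16 h split was 21 higher and 7 lower. At 30 m, 13 were higher and 10 lower (all loops: 26% and 27.2%), and at 72 h, 10 and 11 (23.5% and 28.3%). Thus under this filter the canonical loops had shares near those of the series at 30 m and 72 h. From the larger shares of higher loops at 4 h and 16 h no conclusion is drawn. Those times gave 1952 and 811 of the 3849 H3K4me3 read pairs of the canonical loops, against 383 at 0 m. A loop could therefore pass the filter through the same value that was counted as higher.

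In H3K27ac, 9 canonical loops could be counted. At 30 m, 4 were higher and 0 lower (all loops: 28% and 23.8%). At 4 h, 3 were higher and 3 lower (23.9% and 20.4%), at 16 h 3 and 1 (29% and 25.6%), and at 72 h 2 and 3 (28.5% and 25.5%). Of the 12 loops of the other start, 5 could be counted in H3K27ac, of which 3, 3, 2 and 1 were higher at the 4 DHT times and 1, 0, 2 and 1 lower. In H3K4me3, 2 could be counted, of which 0 were higher at any DHT time and 2, 0, 1 and 1 lower.

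The spread of read pairs among loops differed by mark. The Gini index, 0 for equal loops and near 1 where a single loop has all read pairs, was 0.71, 0.68, 0.62, 0.70 and 0.63 in H3K27ac over the 5 times, and 0.54, 0.55, 0.52, 0.54 and 0.48 in H3K4me3. The medians over all promoters with at least 2 loops were 0.61, 0.61, 0.61, 0.65 and 0.64 for H3K27ac and 0.59, 0.61, 0.56, 0.57 and 0.56 for H3K4me3. So the canonical H3K27ac index was above that of the median promoter at 0 m, 30 m and 16 h and near it at 4 h and 72 h. The H3K4me3 index was below it. These promoters were not matched for loop number, read pairs or loop set. Between 14 and 25 of the 60 canonical loops had no H3K27ac read pair at a given time. How far such sparse counts raise the index was not tested. Without the 4 loops of up to 20 kb the H3K27ac index was 0.65 at 0 m, above the median there, and 0.58 at both 30 m and 16 h, below the medians, which keep such loops. The loop of the upstream-side bin to 7.4 kb had between 20% and 26.0% of the H3K27ac read pairs, and the gene-side loop to the same anchor had between 7.62% and 13.3% of those of H3K4me3.

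The other start had less contact and another course. Its H3K27ac contact over 12 loops was 12.6, 17.8, 23.9, 15.1 and 14.999, from 43, 99, 112, 71 and 57 read pairs. Its H3K4me3 contact was 11.6, 6.49, 9.03, 11.98 and 9.62, from 41, 19, 114, 62 and 35. H3K27ac contact was highest at 4 h and H3K4me3 contact lowest at 30 m.

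The log2 change of H3K27ac contact of the other start was 0.92 at 4 h (0.40 to 1.46) and 0.85 relative to all loops. At 30 m it was 0.50 (-0.03 to 1.05), at 16 h 0.25 and at 72 h 0.25, with intervals that included 0. The log2 change of H3K4me3 contact was -0.83 at 30 m (-1.70 to -0.02), a value from 19 read pairs. Its interval included 0 without the loop between the starts, the strongest in H3K4me3. At 4 h, 16 h and 72 h it was -0.36, 0.05 and -0.27, with intervals that included 0, but relative to all loops the 4 h change was -0.58 (-1.11 to -0.03). In order of level, 4 h and 30 m were the neighbours of H3K27ac that were apart (0.43, 0.02 to 0.83), and no neighbours were in H3K4me3.

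The strongest H3K27ac loop of the other start, to the intronic anchor chr20:56272001-56273000, spanned 5000 bp. It held between 39.5% and 54.9% of the H3K27ac read pairs of that start. The H3K27ac contact of that loop was 5.00, 8.10, 10.3, 8.28 and 7.37, with a log2 change of 1.04 at 4 h (0.21 to 1.93). The loop between the 2 starts had H3K4me3 contact of 5.36, 2.05, 3.72, 3.48 and 2.20, lower than vehicle at 30 m (-1.39, -3.00 to -0.01). At 72 h the change was -1.29 (-2.69 to -0.03) from 8 read pairs against 19, and relative to all loops its interval included 0 (-1.16, -2.56 to 0.10). Its H3K27ac contact was 2.06, 2.34, 3.20, 2.34 and 1.58. The other named far anchors of this start, at -14.4 and -34.4 kb and at 80.6, 70.6, 490.6, 250.6, 265.6 and 455.6 kb upstream, had 51, 35, 28, 27, 22, 20, 16 and 16 read pairs in all.

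No far anchor of these named loops was in the promoter of another protein-coding gene. Among the remaining loops, the promoters of ZBP1, HMGB1P1, RAB22A, NELFCD and PRELID3B held far anchors of canonical loops with 63, 12, 15, 10 and 9 read pairs over all 10 tables, and that of STX16 one of the other start with 15. These 6 genes were chosen after their values were seen. At these depths no change over time was read for them.

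The canonical promoter was next placed among 3 promoters of androgen-responsive genes. FKBP5, a co-chaperone that works with HSP90, had 22 loops and H3K27ac contact of 22.3, 41.7, 34.2, 42.2 and 36.3. The serine protease gene TMPRSS2 had 56 loops and H3K4me3 contact of 84.9, 84.7, 93.1, 258.6 and 98.9. KLK3, which encodes prostate-specific antigen, had 13 loops, H3K27ac contact of 142.8, 154.2, 294.0, 212.7 and 82.4, and H3K4me3 contact of 49.6, 52.9, 64.7, 148.5 and 50.3.

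At 16 h the log2 change of H3K4me3 contact was 0.54 at PMEPA1 (0.36 to 0.72), below TMPRSS2 at 1.61 (1.43 to 1.79) and KLK3 at 1.58 (1.34 to 1.83), and above FKBP5 at 0.06 (-0.24 to 0.37). At 4 h in H3K4me3 PMEPA1 stood at 0.52 (0.36 to 0.68), FKBP5 at 0.61 (0.35 to 0.87), KLK3 at 0.38 and TMPRSS2 at 0.13. At 16 h in H3K27ac PMEPA1 stood at 0.44 (0.12 to 0.76), FKBP5 at 0.92 (0.53 to 1.32), KLK3 at 0.57 and TMPRSS2 at -0.05. At 4 h in H3K27ac it was 0.25 at PMEPA1 (-0.07 to 0.59), 1.04 at KLK3 (0.89 to 1.19), 0.61 at FKBP5 and 0.34 at TMPRSS2. At 30 m in H3K27ac FKBP5 had 0.90 (0.52 to 1.30) and PMEPA1 0.47 (0.16 to 0.79), with intervals that overlapped, and KLK3 and TMPRSS2 had 0.11 and 0.09. These comparisons share the 0 m tables.

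**Figure D4:**
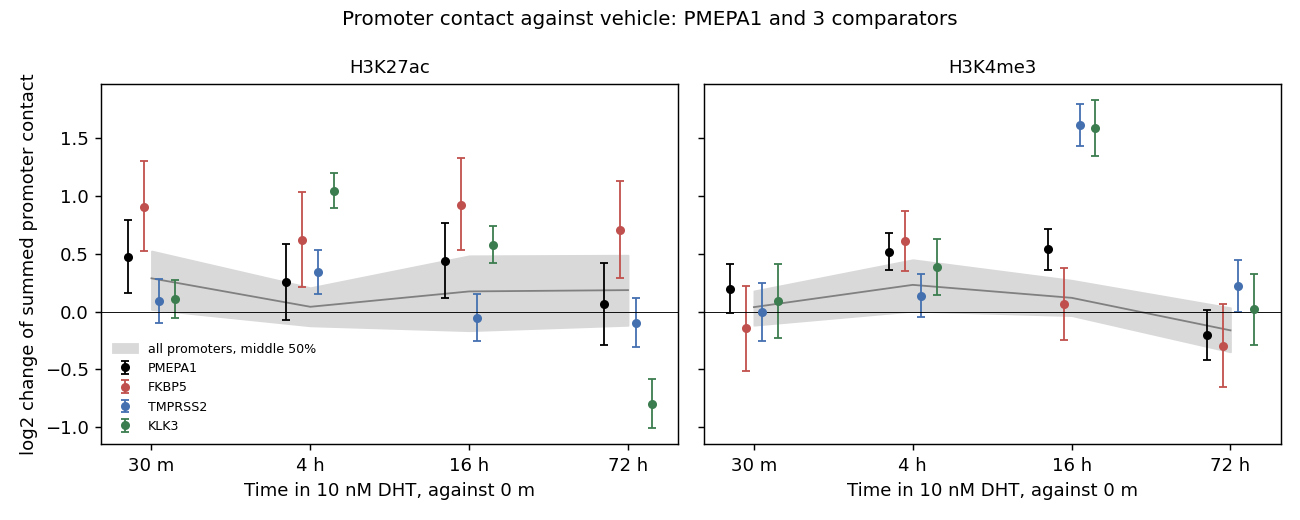
log2 change of summed promoter contact against 0 m, with exact 95% intervals, for PMEPA1, FKBP5, TMPRSS2 and KLK3; the grey band spans the quartiles of all promoters with at least 200 read pairs and the grey line is their median. PMEPA1 lies above the band in H3K4me3 at 16 h (0.54) and within it at 72 h (-0.20).

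Among all protein-coding promoters with at least 200 read pairs in the mark (10913 in H3K27ac and 12202 in H3K4me3), PMEPA1 stood at percentiles 69.9, 80.7, 71.5 and 39.5 by its H3K27ac change at the 4 DHT times. By its H3K4me3 change it stood at 77.7, 81.1, 95.2 and 43.95. The median promoter had H3K27ac changes of 0.29, 0.04, 0.17 and 0.18 and H3K4me3 changes of 0.04, 0.23, 0.12 and -0.16. So the H3K4me3 change at 16 h was the one in which PMEPA1 stood farthest up, with 579 promoters above it.

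The promoters whose course was most like that of PMEPA1, by Pearson's r of log2 contact centred within each mark over the 10 tables, were SLX4 (r = 0.979), TOR1A (0.974), RPS3 (0.964), HSP90AA1 (0.957) and JTB (0.953), out of 10686. SLX4 is a scaffold of DNA repair nucleases, RPS3 a ribosomal protein and HSP90AA1 a chaperone. Over all of them the median r was 0.475, and FKBP5, KLK3 and TMPRSS2 had 0.752, 0.616 and 0.465. The 10 points share their tables' depth and scaling across genes, so r is a description.

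Of the TGF-beta pathway, 29 genes other than PMEPA1 were followed by the summed contact of their promoters, and 20 passed 200 read pairs in H3K27ac and 23 in H3K4me3. In H3K27ac at 16 h, 4 were at least 1.5-fold higher and 1 lower, against 18.8% and 6.71% of all promoters. The median log2 change of those that passed was 0.26 against 0.17. Relative to all loops, SMURF1 (0.88) and CDKN2B (0.995) stayed past 1.5-fold higher, and ZFYVE9 (0.42) and CDKN1A (0.43) did not. On that scale ID1 (-0.66) was past 1.5-fold lower beside SMAD6 (-1.05). In H3K4me3 at 4 h, 6 were higher and 0 lower, against 14.1% and 1.77%, with a median of 0.27 against 0.23. Relative to all loops, ZFYVE9 (0.61) stayed past 1.5-fold. TGFBR3 (0.51), BAMBI (0.44), SMURF1 (0.41), TGFBR1 (0.38) and TGIF1 (0.37) did not. The shares of all promoters were not recounted on that scale. At 16 h in H3K4me3, 0 were higher and 0 lower, against 3.49% and 0.434%, with a median of 0.05 against 0.12. PMEPA1 itself, at 0.54, was above the highest of the 23 at that time (0.38, BAMBI).

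Ligands and type II receptor had little contact: TGFB2, INHBA and TGFBR2 had 2, 2 and 4 loops, and of the ligands TGFB1 alone passed, in H3K4me3. The receptors TGFBR1 and TGFBR3 had H3K4me3 changes of 0.60 (0.16 to 1.07) and 0.73 (0.51 to 0.96) at 4 h, and relative to all loops the interval of TGFBR1 included 0 (0.38, -0.06 to 0.85). Of the SMAD effectors, SMAD3 had an H3K27ac change of 0.40 (-0.02 to 0.83) at 16 h, SMAD2 0.11 (-0.14 to 0.37) and SMAD4 0.0024 (-0.58 to 0.60). SMURF1, a ubiquitin ligase for SMADs and receptors, had H3K27ac contact of 19.7, 39.8, 21.6, 42.9 and 42.1, a change of 1.12 at 16 h (0.72 to 1.54). ZFYVE9, which anchors SMADs at endosomes, had 0.66 (0.37 to 0.96) at 16 h, and NEDD4L, a ligase of the family that binds PMEPA1, -0.08 (-0.29 to 0.14), or -0.32 relative to all loops (-0.53 to -0.11).

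The inhibitory SMAD gene SMAD6 had H3K27ac contact of 54.4, 63.2, 66.7, 31.2 and 28.9. Its change was -0.80 at 16 h (-1.12 to -0.48), and it was the 1 lower member in TMM-scaled signal. SMAD7, the other inhibitory SMAD gene, had 0.28 (0.08 to 0.47), and 0.03 relative to all loops (-0.17 to 0.23). LDLRAD4, the closest relative of PMEPA1, had 5 loops and did not pass in either mark. BAMBI, a pseudoreceptor, had an H3K4me3 change of 0.66 at 4 h (0.54 to 0.79), but an H3K27ac change of -0.39 (-0.56 to -0.22) at that time and of -0.38 at 30 m (-0.54 to -0.21). Of the targets, the cell cycle inhibitor genes CDKN2B and CDKN1A had H3K27ac changes of 1.24 (0.88 to 1.62) and 0.68 (0.41 to 0.94) at 16 h. Among the pathway's inhibitors that passed, PMEPA1, with 0.44, was between BAMBI (0.39) and the corepressor gene TGIF1 (0.47).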

How the data were processed

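The authors trimmed reads with Trim Galore 0.5.0, mapped and filtered them with HiC-Pro 3.1.0 (Bowtie2) on hg19, called loops with FitHiChIP on the merged time points of a mark, and deposited a TMM-scaled contact signal per loop. Each of the 10 tables holds both loop sets, and a loop in both was counted once. All values (100%, tolerance 1e-06) were whole multiples of the smallest step of their table, taken as 1 read pair. Contact was summed over loops. Ratios have exact conditional (Clopper-Pearson) 95% intervals, and this step was tested on simulated data. With 1 value per group no count test was run. Equal totals means read pairs divided by the table's total. Starts are from Gencode release 44 on hg19, and sequences from GRCh37. Loops with an end past a chromosome end numbered 0.

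Genes named are PMEPA1, the comparators FKBP5, TMPRSS2 and KLK3, the TGF-beta list, genes whose promoter holds the far anchor of a named loop, the 5 promoters most correlated with PMEPA1, and the cell type markers. The report also names 6 genes outside this rule and says so there. Some of these genes and 1 sequence are not reported here, but list counts and medians cover the whole list. Named loops are the 10 with most read pairs per start, and the 3 with the highest and lowest 16 h change per mark with at least 50 read pairs. The members and lists were chosen with earlier results of these data known. Python 3.11.15, numpy 2.4.6, pandas 2.3.3, scipy 1.17.1 and matplotlib 3.10.9 were used.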

Additional observations from a re-analysis of the deposited data

Results flagged for a closer look

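4 results were picked out because the marks moved in opposite directions against 0 m. At the canonical promoter at 72 h, the log2 change was 0.06 in H3K27ac and -0.20 in H3K4me3, a difference of 0.27, and both intervals included 0. At equal totals both were lower (-0.11 and -0.08), so the opposition was lost. At the other start it was 0.50 and -0.83 at 30 m (difference 1.33), 0.92 and -0.36 at 4 h (1.28), and 0.25 and -0.27 at 72 h (0.51). The H3K27ac value at 4 h and the H3K4me3 value at 30 m had intervals without 0. Without the loop between the starts, the strongest in H3K4me3, the latter was -0.48 (-1.59 to 0.57). The 72 h values turned to -0.0017 and 0.26, each without the strongest loop of its own mark. At equal totals the H3K4me3 value at 4 h was -0.58 (-1.11 to -0.03). None of the 4 differences was tested.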

How the results depend on the processing

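Each of 22 results was recomputed under up to 7 other settings, 86 values in all. The strongest loop left out was the one with most read pairs in the mark, so it differed between the marks. A log2 value within the 95% interval of the original, or a count within 1.5 times of it, was taken as unmoved, which held for 74, and 12 moved. Of the 74, 8 were from the whole 5 kb bin of the anchor, which kept the same loops and so could not move. The Gini index has no interval and was always counted as moved. No value whose interval excluded 0 changed sign. The bin-alone settings, 16 of the 86, were chosen after seeing the data.

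The canonical H3K4me3 change at 4 h was 0.29 at equal totals (0.52 before), since the total at 4 h was higher. With the upstream-side bin alone it was 0.14 at 4 h and 0.28 at 16 h. Of canonical loops past the fold at 16 h in H3K27ac, 1 was higher and 0 lower among loops with at least 50 read pairs (3 and 1 before). In H3K4me3, 13 were higher and 0 lower at 2-fold, and 15 and 1 with at least 50 read pairs (23 and 4 before), and 7 were lower at equal totals. With loops of at least 20 kb the Gini index at 16 h was 0.58 in H3K27ac (0.70 before, median promoter 0.65) and 0.49 in H3K4me3 (0.54 before). Apart from equal totals, the cause was not tested.

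Changes whose interval included 0 did turn in sign. Canonical H3K27ac at 72 h was -0.11 at equal totals (0.06 before). It was -0.05 without the strongest H3K27ac loop, that of the upstream-side bin to 7.4 kb. Canonical H3K4me3 at 30 m was -0.0090 with the upstream-side bin alone (0.20 before). At the other start, without the loop to chr20:56272001-56273000, H3K27ac was -0.17 at 16 h and -0.0017 at 72 h (both 0.25 before). Without the loop between the starts, H3K4me3 was 0.26 at 72 h (-0.27 before). H3K4me3 at 16 h was -0.08 there at equal totals (0.05 before).

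The canonical H3K27ac interval at 16 h came to include 0 at equal totals (0.19), with loops of at least 20 kb (0.29) and with loops of the same mark's set (0.34), and that at 30 m with the last (0.40). With the upstream-side bin alone both did (0.29 and 0.33), as did the canonical H3K4me3 intervals at 4 h and 16 h. That of the other start in H3K4me3 at 30 m did without the loop between the starts, the strongest in that mark (-0.48). Canonical H3K27ac at 4 h came to exclude 0 with loops of at least 20 kb (0.40, 0.0063 to 0.80). So did canonical H3K4me3 at 30 m with the same mark's set (0.27, 0.03 to 0.51) and with the gene-side bin alone (0.24, 0.0077 to 0.48). The other start in H3K4me3 at 4 h did so at equal totals (-0.58, -1.11 to -0.03). With only the 56 canonical loops over 20 kb, the H3K27ac interval at 4 h included 0 (0.35, -0.06 to 0.77). That at 30 m then did too (0.39, -0.0068 to 0.80), while the H3K4me3 interval at 30 m excluded 0 (0.25, 0.0023 to 0.50). The canonical H3K4me3 intervals at 4 h and 16 h excluded 0 in all 5 planned settings. Of these, the whole 5 kb bin of the anchor took in the same 60 loops, so its values were identical and it adds nothing. No paired analysis was possible because a loop has a single value in each table and no replicate number.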
